A study of Mus musculus with 14 samples.

Results

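The interferon-inducible GTPases are genes of the immunity-related GTPase (IRG) and guanylate-binding protein (GBP) families. Members were the genes Irgm1, Irgm2, Igtp, Iigp1 and Gbp2 to Gbp7, 10 in all, taken from array probe sets that carry that single gene symbol, with the probe set of the highest mean kept for each gene. On the larger of 2 array designs 9 of the 10 had such a probe set, out of 22180 genes, and on the smaller design 6 did, out of 19938 genes. Gbp2 was not analysed here, and neither were Irgm2, Igtp and Gbp6 on the smaller design.

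Interferon binding to its receptor activates JAK kinases and through them transcription factors, and IRF1, itself induced, then acts on the promoters of these GTPases. Induced IRG and GBP proteins assemble on vacuoles that hold parasites or bacteria and help to break them open, and some GBPs promote inflammasome activation. In tumours these transcripts are used as a readout of interferon exposure, and both the tumour cells and the leukocytes around them can make them.

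Total RNA came from 14 subcutaneous tumours grown from B16-F10, a pigmented melanoma line of C57BL/6 mice, and was measured on Affymetrix whole-transcript arrays. Control tumours grew from B16-F10 cells sensitive to radiation combined with CTLA4 blockade (4 tumours on the larger design and 1 on the smaller). Res 499 tumours (7, all on the larger design) and Res 177 tumours (1 on each design) grew from sublines isolated from unirradiated tumours of mice that resisted this therapy or relapsed after it, and re-implantation was used to test that the sublines were resistant. Under the labels' protocol, cells in Matrigel were injected on day 0 on the right flank and day 2 on the left, the right tumour received 20 Gy on day 8, and mice received the CTLA4-blocking antibody on day 5, day 8 and day 11. The labels do not say whether the measured tumours had themselves been treated, whether tumours of 1 group came from separate mice, or whether a subline is a single clone, so p-values measure only how these samples spread, and some of that spread may be technical. The melanocyte markers Pmel, Tyr, Tyrp1, Dct, Mlana, Mitf and Sox10 all lay at a log2 level of 10.7 or more in the Res 499 and control tumours of the larger design. Tumour numbers only name a tumour and carry no order.

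Start-site sequence from RefSeq (build GRCm38.p6) was matched by symbol for 6 members with array values, Irgm1, Irgm2, Igtp, Gbp3, Gbp5 and Gbp7. Iigp1 was left out of this search, and Gbp4 and Gbp6 had no entry. The sequence is shown because the tested members rose and fell together from tumour to tumour, and its part in that was not tested. Windows of 300 bases, from 250 before to 50 after the transcript start, were searched on both strands for GAAA followed after any 2 bases by GAAA, the core of the interferon-stimulated response element (ISRE) bound by IRF factors, and for TTC followed after any 3 bases by GAA, the core of the gamma-activated site (GAS), which reads the same on both strands. On the other strand the ISRE core reads TTTC, 2 bases, TTTC. The ISRE letters were in 6 of the 6 genes' windows (in 1 of the 2 annotated starts of Gbp3) and in 3.44% of all 32851 windows. The GAS letters were in 4 of the 6 genes and in 8.30% of all windows. A match is a run of letters and not a measured binding site. The stretches before the start are printed with ISRE and GAS letters in capitals and all other bases in lower case, in the direction of transcription.
Irgm1, chr11:48871421-48871540, minus strand: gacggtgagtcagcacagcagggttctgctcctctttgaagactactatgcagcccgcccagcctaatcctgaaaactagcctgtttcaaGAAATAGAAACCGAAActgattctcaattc
Irgm2, chr11:58214857-58214976, plus strand: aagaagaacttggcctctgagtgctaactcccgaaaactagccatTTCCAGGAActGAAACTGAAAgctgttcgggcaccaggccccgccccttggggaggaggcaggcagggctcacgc
Igtp, chr11:58199436-58199555, plus strand: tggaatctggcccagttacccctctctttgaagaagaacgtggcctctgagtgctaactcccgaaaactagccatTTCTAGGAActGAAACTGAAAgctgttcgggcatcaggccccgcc
Gbp3, chr3:142559924-142560015, plus strand: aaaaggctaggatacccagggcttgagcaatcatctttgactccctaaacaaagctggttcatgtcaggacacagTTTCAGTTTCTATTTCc
Gbp5, chr3:142496684-142496933, plus strand: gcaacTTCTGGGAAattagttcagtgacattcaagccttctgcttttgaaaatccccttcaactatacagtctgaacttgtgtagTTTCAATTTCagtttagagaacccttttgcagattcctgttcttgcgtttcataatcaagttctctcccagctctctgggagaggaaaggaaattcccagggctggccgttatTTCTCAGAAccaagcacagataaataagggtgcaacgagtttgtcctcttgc
Gbp7, chr3:142530216-142530335, plus strand: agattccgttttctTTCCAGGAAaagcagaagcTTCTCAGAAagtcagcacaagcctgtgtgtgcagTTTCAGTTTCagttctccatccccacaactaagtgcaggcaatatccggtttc

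In Irgm1 and in Gbp3 the capitals join 2 overlapping ISRE matches, at 30 to 15 and at 45 to 30 bases before the start. In Irgm2 and Igtp, neighbours on chromosome 11, a GAS match lies just before the ISRE match. The 2 start windows share an unbroken run of 61 identical bases when shifted by 30 bases. That run lies outside these matches, and the GAS letters differ (TTCCAGGAA and TTCTAGGAA). Of the 270 bases aligned at that shift, 68.1% are identical. In Gbp7 the ISRE letters lie 53 to 44 bases before the start and 2 GAS matches lie farther out, and in Gbp5 the ISRE letters lie farther out, at 165 to 156 bases.

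**Figure D1:**
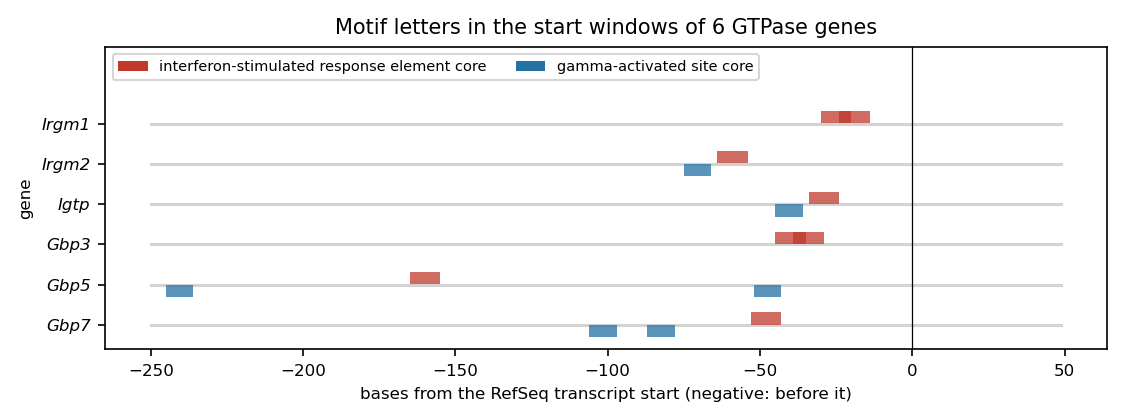
Positions of ISRE core letters (red, either strand) and GAS core letters (blue) in the start windows of 6 GTPase genes, in bases from the RefSeq transcript start, with the first start shown for Gbp3. Each of the 6 genes has an ISRE match before its start, and Irgm2, Igtp, Gbp5 and Gbp7 also have a GAS match.

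The regulatory IRGs Irgm1, Irgm2 and Igtp sit on the cell's own membranes and hold the effector IRGs inactive there. Irgm2 stood at log2 levels of 7.81, 7.28, 8.19 and 9.08 in control tumours 2 to 5, from 7.87 to 10.67 (median 9.73) in the 7 Res 499 tumours and at 9.86 in the Res 177 tumour. Res 499 tumours 1 to 4 lay above every control, while tumours 5, 6 and 7 lay within the control range. The Res 499 mean was 9.37 ± 1.07 (SD, n = 7) and the control mean 8.09 ± 0.76 (SD, n = 4). Their difference, 1.27 (SE 0.52), missed the threshold in limma's test across genes (adjusted p = 0.325).

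Igtp had control values of 7.82, 6.26, 7.88 and 8.68, Res 499 values from 6.58 to 11.13 (median 9.38) and 10.0 in the Res 177 tumour. Its groups also overlapped, with 4 of 7 Res 499 tumours above the highest control, and the difference of 1.34 (SE 0.84) did not pass (limma adjusted p = 0.549). It was 0.88 without control tumour 3. Irgm1 had control values of 7.88, 7.47, 7.85 and 8.39, Res 499 values from 7.17 to 9.54 (median 8.64) and 8.94 in the Res 177 tumour. Here 4 Res 499 tumours lay above every control and 2, tumours 6 and 7, below every control, and the difference of 0.59 (SE 0.44) did not pass (limma adjusted p = 0.626).

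Iigp1 encodes an effector IRG that loads onto the vacuole of intracellular parasites. It had control values of 6.86, 5.43, 6.42 and 7.31, Res 499 values from 5.32 to 9.72 (median 7.71) and 9.00 in the Res 177 tumour. The 7 Res 499 tumours spanned 21.1-fold, from 2 tumours just below the lowest control to 4 above the highest. Means were 7.64 ± 1.86 (SD, n = 7) in Res 499 and 6.50 ± 0.80 (SD, n = 4) in control tumours, and the difference was 1.14 (SE 0.85, limma adjusted p = 0.624).

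Of the GBPs, which are larger GTPases that coat vacuoles and bacteria, Gbp4 had the widest span. It had control values of 4.62, 4.0, 4.51 and 5.24, Res 499 values from 3.87 to 9.18 (median 5.74) and 7.54 in the Res 177 tumour. Its SD among the 7 Res 499 tumours was 2.03. The control mean of 4.59 and the lowest Res 499 tumours lay under the 4.94 below which genes were left out of the test, so Gbp4 entered it through the tumours where it was high, and its span and differences start from a dim signal. The difference from control was 1.33 (SE 0.90, limma adjusted p = 0.581), with 4 Res 499 tumours above every control and 1 below. Without Res 499 tumour 2 the difference was 0.79 (limma adjusted p = 0.629). Gbp4 and Gbp6 have close paralogs (Gbp8 to Gbp11) in their cluster that can share probe sequence, so their values are uncertain.

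Gbp7 had control values of 7.49, 6.68, 7.51 and 8.14, Res 499 values from 6.25 to 10.21 (median 8.56) and 9.37 in the Res 177 tumour. Res 499 tumours 6 and 7 lay below every control and tumours 1 to 4 above, and the difference was 0.86 (SE 0.70, limma adjusted p = 0.660), or 0.54 without tumour 2. Gbp5, which promotes assembly of the NLRP3 inflammasome, had control values of 5.12, 5.01, 5.37 and 5.47, Res 499 values from 5.08 to 7.11 (median 5.81) and 6.14 in the Res 177 tumour. Its control tumours were the tightest of the tested members (SD 0.22, n = 4), 4 Res 499 tumours lay above them and none below, and the difference was 0.79 (SE 0.39, limma adjusted p = 0.412).

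Gbp3 had control values of 5.68, 5.35, 5.54 and 6.14, Res 499 values from 5.24 to 7.91 (median 6.13) and 6.95 in the Res 177 tumour. Tumours 1, 2 and 3 were the Res 499 tumours above every control, and the difference was 0.83 (SE 0.48, limma adjusted p = 0.508). Gbp6 lay between 3.86 and 4.51 in all 12 tumours, under the level of 4.94 below which genes were left out of the test, and its Res 499 mean was 0.09 below the control mean. Its SD was 0.20 in each of these groups, the smallest of the members in both.

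**Figure D2:**
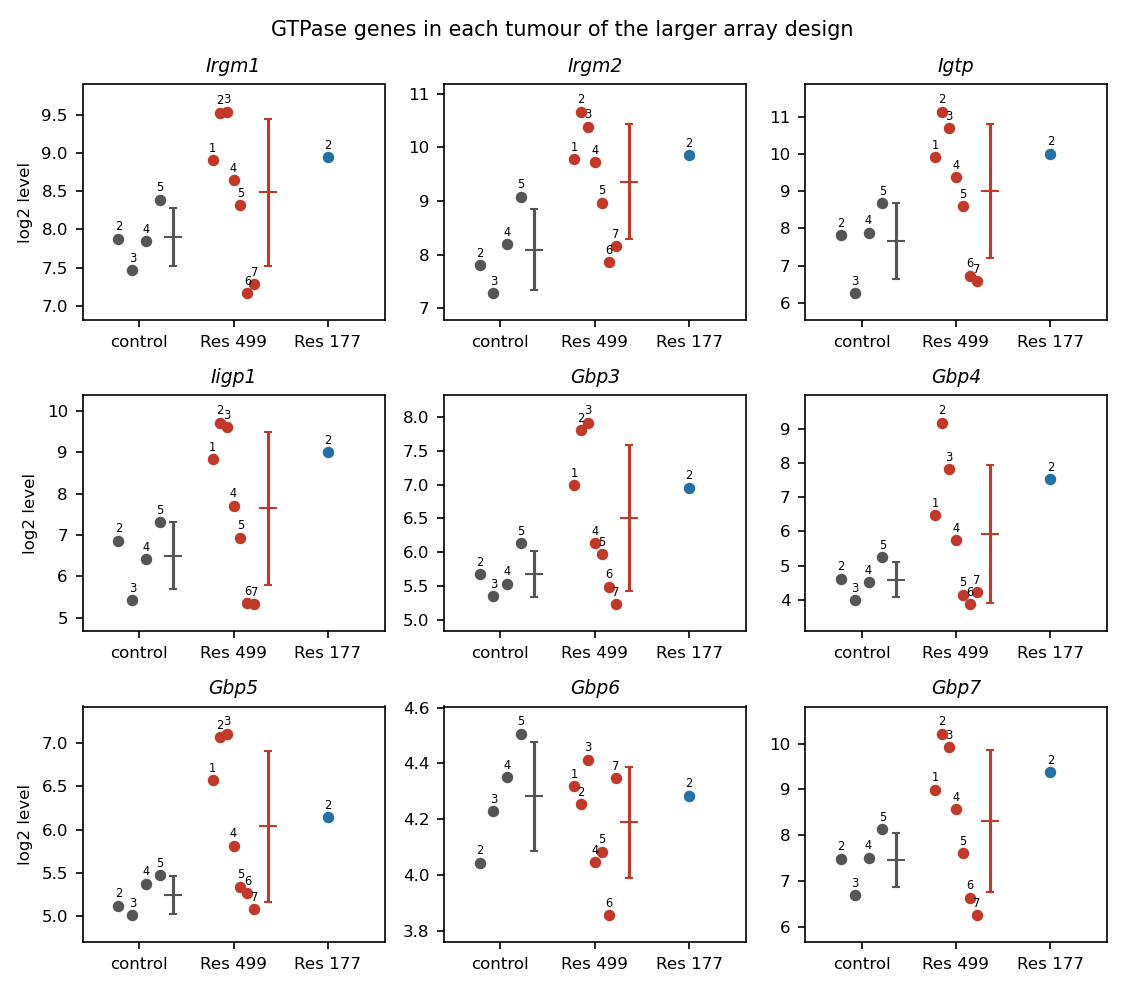
Log2 level of each GTPase gene (y axis, own scale per panel) in the 4 control, 7 Res 499 and 1 Res 177 tumours of the larger design, with tumour numbers beside the points and the mean ± SD to the right of each group of more than 1 tumour. In 8 of the 9 panels the Res 499 tumours spread from within or below the control range to far above it, and Gbp6 stays between 3.86 and 4.51.

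The question of the comparison is how tumours grown from sublines resistant to radiation with CTLA4 blockade differ from those of sensitive cells. None of the 8 tested members passed in Res 499 against control, where 24 of 16635 genes (0.144%) passed as higher by limma with Benjamini-Hochberg adjustment at a threshold of 0.05. At an unadjusted p under 0.05 the count was 1 of 8 (Irgm2) against 6.68% of all genes higher. The 8 changes were all above 0 with a median of 1.0, beside a median of 0.01 over all genes tested. At least 3 Res 499 tumours lay above every control for 8 of the 8, beside 27.8% of all genes, and at least 4 did for 7 of the 8, beside 17.1%, while no member had every Res 499 tumour above every control, which 1.23% of genes had. These counts include Gbp4, which entered the test through its high tumours. They leave out Gbp6, for which 0 Res 499 tumours lay above every control. Without Gbp4 and Gbp6 the median change was 0.86. The lowest adjusted p of any member ranged from 0.186 to 0.723 over 22 alternative settings.

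The same tumours were high for nearly every member. Among the 8 tested members Res 499 tumour 2 or 3 was the highest of its group each time (5 and 3 genes), and tumour 6 or 7 the lowest (3 and 5 genes). Over the 7 Res 499 tumours the 28 pairs of tested members had Pearson r from 0.902 to 0.995 (median 0.963), a description over tumours that share a subline and arrays. Relative to the control mean, the mean of the 9 members was 1.49, 2.46, 2.22, 0.93, 0.29, -0.57 and -0.55 (log2) in Res 499 tumours 1 to 7. Tumours 1, 2 and 3 thus stood well above the control range of -0.63 to 0.62, tumour 4 above it and tumours 5, 6 and 7 within it.

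Control tumours also differed from each other in a shared order. Control 5 was the highest and control 3 the lowest for 8 of the 8 tested members, with means of 0.62 and -0.63 against -0.01 and 0.02 in controls 2 and 4. Of all genes tested, 9 had a larger SD among the control tumours than Igtp, 34 than Iigp1 and 40 than Irgm2, and 3105 than Gbp5. The mean of the 4 IRG genes was 1.82, 2.72, 2.52, 1.33, 0.67, -0.76 and -0.70 in Res 499 tumours 1 to 7, and that of the 5 GBP genes was 1.22, 2.26, 1.99, 0.61, -0.02, -0.43 and -0.42. Both families thus put the tumours in nearly the same order, and the difference between them was not tested.

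The leukocyte and macrophage marker means, like the GTPase mean, lay above the control range in Res 499 tumours 1, 2 and 3. So did the T cell, B cell, endothelial and fibroblast means. Fibroblast means were 1.16, 1.40 and 1.28 there (highest control 0.59), and endothelial means 0.56, 0.30 and 0.55 (highest control 0.27). The NK cell, dendritic cell, neutrophil, keratinocyte and melanocyte means did not lie above it in each of these tumours. All 9 tested macrophage markers (of 10 listed) had changes above 0 in Res 499 against control with a median of 0.86, and all 5 leukocyte markers did with a median of 0.72. Macrophage means per tumour ran from -0.38 to 2.05 in Res 499 and from -0.15 to 0.34 in control, and leukocyte means from -0.30 to 1.78 and from -0.16 to 0.30. Ptprc, the CD45 gene, differed by 1.16 (SE 0.52, limma adjusted p = 0.369) and Adgre1, the F4/80 gene, by 1.43 (SE 0.64, limma adjusted p = 0.370). Fewer cells of a type and less RNA per cell cannot be told apart in bulk tumours.

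In single tumours the macrophage and leukocyte markers and the GTPases parted. Res 499 tumour 5 had a macrophage mean of 1.61 and a leukocyte mean of 1.31 with a GTPase mean of 0.29, and tumour 4 had 0.25 and 0.28 with a GTPase mean of 0.93. Control 2, the highest control for macrophage (0.34) and leukocyte (0.30) means, had a GTPase mean of -0.01. Control 5, the highest control for the GTPases, had a macrophage mean of -0.10 and a leukocyte mean of 0.01. It was the highest control for T cell (0.21), NK cell (0.29), B cell (0.12), dendritic cell (0.10), neutrophil (0.06) and keratinocyte (0.16) means. With the mean of the 5 leukocyte genes as a covariate, the median change of the members in Res 499 turned from 1.0 to -0.30. In that fit 6 of 8 changes lay below 0, and those of Irgm2 (0.36) and Gbp5 (0.03) above. None passed (lowest limma adjusted p = 0.723), so their signs are uncertain. The covariate itself was on average 0.90 above control in Res 499, so it is partly confounded with the subline. Their parts in the GTPase values were not tested apart.

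**Figure D3:**
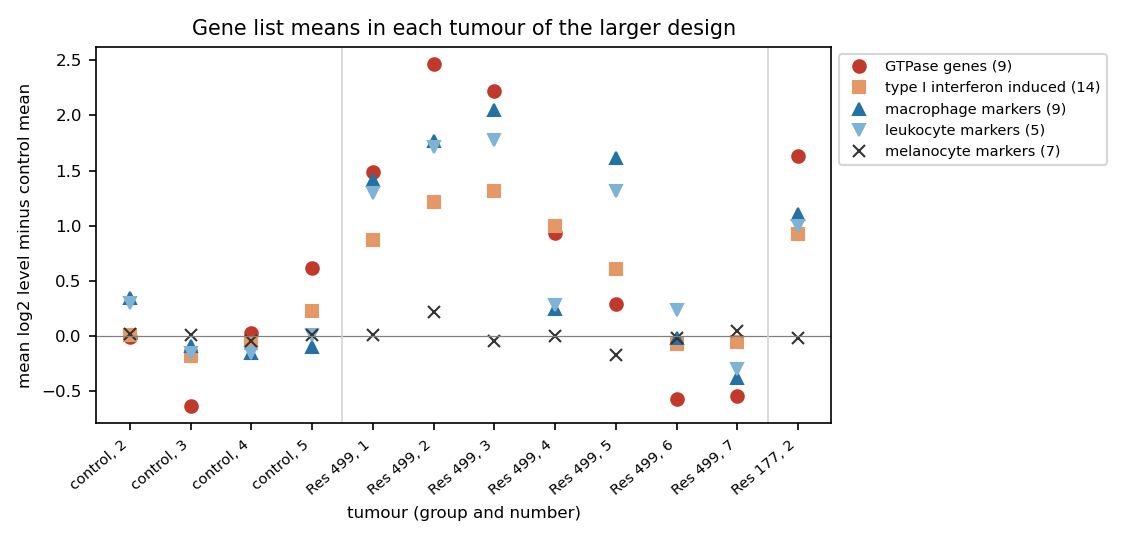
Mean log2 level of 5 gene lists in each of the 12 tumours of the larger design, relative to the mean of the 4 control tumours (0 line). GTPase genes reach 2.46 in Res 499 tumour 2 and lie at -0.57 and -0.55 in tumours 6 and 7, and in tumours 4 and 5 they part from the macrophage and leukocyte markers, while melanocyte markers stay between -0.17 and 0.22.

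T cell markers had a median change of 0.22 in Res 499 (8 of 8 above 0) and means per tumour from -0.11 to 0.80 against -0.10 to 0.21 in control. NK cell markers had a median of 0.13 (4 of 4 tested above 0), dendritic cell markers 0.07 (3 of 4), neutrophil markers 0.10 (3 of 3), B cell markers 0.17 (2 of 2), endothelial markers 0.13 (4 of 5), fibroblast markers 0.43 (4 of 5), keratinocyte markers 0.08 (4 of 5) and melanocyte markers 0.02 (4 of 7). No gene of these marker lists passed the test in Res 499. The part of these lists in the GTPase values was not tested, and the covariate fit used only the mean of the 5 leukocyte genes.

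Upstream of the GTPases, the listed interferon receptors, kinases, transcription factors and feedback inhibitors had a median change of 0.13, with 16 of 19 tested above 0 and 0 called. Ifng, the gene of interferon gamma, lay between 5.39 and 5.71 in Res 499 and between 5.41 and 5.57 in control. Its groups overlapped with no tumour standing apart (difference 0.06, SE 0.07, limma adjusted p = 0.774). These levels lay around or under the array medians of 5.70 to 5.80, where changes can be understated. Irf1, a transcription factor that drives IRG and GBP genes, ranged from 7.05 to 9.30 in Res 499 and from 7.54 to 8.30 in control (difference 0.48, SE 0.39, limma adjusted p = 0.663). The interferon signalling means per tumour ran from -0.13 to 0.56 in Res 499 against -0.09 to 0.09 in control.

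Related GTPases outside the members had a median change of 0.96 in Res 499, with 8 of 8 tested above 0 and 0 called. Gm12250, which encodes the IRG protein Irgb10, differed by 1.34 (SE 0.56, limma adjusted p = 0.334), Gbp8 by 1.27, Gm4951 by 1.10 and Gbp10 by 1.02, while Gbp2b, the mouse Gbp1 gene, differed by 0.15. Gbp8 and Gbp10 are among the paralogs that can share probe sequence with Gbp4 and Gbp6, so their values are uncertain too. Of the autophagy and inflammasome genes whose proteins work with the GTPases, 16 of 20 had changes above 0 with a median of 0.10, and none passed in Res 499. Pycard, the inflammasome adaptor ASC, had the lowest adjusted p of the list at 1.07 (SE 0.24, limma adjusted p = 0.0775), while the ubiquitin-like conjugation genes Atg3, Atg5, Atg7, Atg12 and Atg16l1 lay between -0.03 and 0.17.

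Other genes induced by interferon gamma had a median change of 0.62 (16 of 17 above 0), and those induced by type I interferon 0.75 (13 of 14 above 0). A gene rose in each list, Cxcl10, a chemokine for activated T cells, by 1.33 (SE 0.25, limma adjusted p = 0.0482) and Ifi27 by 0.81 (SE 0.14, limma adjusted p = 0.0427). Their SDs in Res 499 were 0.41 and 0.22 (n = 7), against 2.03 for Gbp4 and 0.87 for Gbp5. Both calls were close to the threshold: of 21 alternative settings Cxcl10 passed in 10 (limma adjusted p 0.0136 to 0.169) and Ifi27 in 13 (0.0106 to 0.169), and each was lost with the leukocyte covariate, without control tumour 2, 3 or 4 and without Res 499 tumour 1, 3, 4 or 6. The difference between these lists and the GTPases was not tested.

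By Pearson r with the mean of the members over the 12 tumours, the 8 genes of most like pattern were Parp14 (r = 0.991), Gm4951 (0.986), Tapbpl (0.983), H2-Q4 (0.981), Sp110 (0.979), Zbp1 (0.973), Oasl2 (0.971) and Erap1 (0.970), out of all tested genes that are not members. Spearman's rho lay between 0.951 and 0.986 for these 8, and r lay between 0.973 and 0.999 over the 7 Res 499 tumours alone and between 0.946 and 0.981 without the 2 tumours farthest from the median. These are descriptions of genes picked for a high r, over tumours of which 7 share a subline and 3 stand high together, so no p is given. Irf1 had an r of 0.948, Adgre1 0.864, Ptprc 0.856 and Ifng 0.615 over the same 12 tumours.

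In Res 177 tumours the members lay higher than control on both designs, which used different Res 177 and control tumours. On the larger design the single Res 177 tumour was above every control for 8 of the 8 tested members, beside 22.5% of all genes. These 8 include Gbp4, which entered the test through its high tumours, and Gbp6, left out of it, lay at the control mean. The fitted changes were 2.95 for Gbp4 (SE 1.60), 2.50 for Iigp1 (SE 1.51), 2.35 for Igtp (SE 1.51), 1.92 for Gbp7 (SE 1.24) and 1.77 for Irgm2 (SE 0.94), and those of Gbp3, Irgm1 and Gbp5 were 1.28, 1.05 and 0.90. None passed: the limma adjusted p was 1.0 for each, 0 had an unadjusted p under 0.05 (as 2.56% of all genes had and were higher), and 35 of 16635 genes (0.210%) passed, all of them higher. With 1 tumour in the arm, the error comes from the spread of the other groups.

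On the smaller design, normalized apart, Iigp1 stood at 9.55 in the Res 177 tumour and 6.44 in the control tumour, an 8.63-fold difference. Only 7 of the 14953 genes above the filter on dim genes differed by more in that direction. Gbp4 stood at 9.60 against 6.83 (6.83-fold), Gbp7 at 9.74 against 8.09 (3.13-fold), Gbp3 at 8.57 against 7.09 (2.77-fold) and Irgm1 at 11.51 against 10.19 (2.51-fold). All 5 members above that filter were higher in Res 177, as 58.5% of genes were, and more than 2-fold higher, as 1.22% of genes were, with a median difference of 1.64 against 0.04 over all genes. Gbp5, below the filter, stood at 5.95 against 5.39. There are no replicates on this design and no test was made.

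Iigp1 and Gbp4 had the 2 largest differences of the 6 shared members on each design, and Gbp5 the smallest. Among all genes by this difference Iigp1 ranked 10 on the larger and 8 on the smaller design. No rank is given for Gbp4, whose control mean on the larger design was dim. Other lists were higher in the same tumours: macrophage marker medians were 1.01 and 1.21 (9 of 9 above 0 on each design), leukocyte marker medians 0.68 and 0.87 (5 of 5 on each), and keratinocyte marker medians 3.01 (5 of 5) and 1.34 (6 of 6). The 5 keratinocyte markers tested on the larger design, Dsc3, Dsp, Krt14, Krt17 and Perp, each rose by limma's test, and their part in the GTPase values was not tested. With the leukocyte covariate the median change of the members in Res 177 on the larger design went from 1.84 to 0.42, and all 8 changes stayed above 0.

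**Figure D4:**
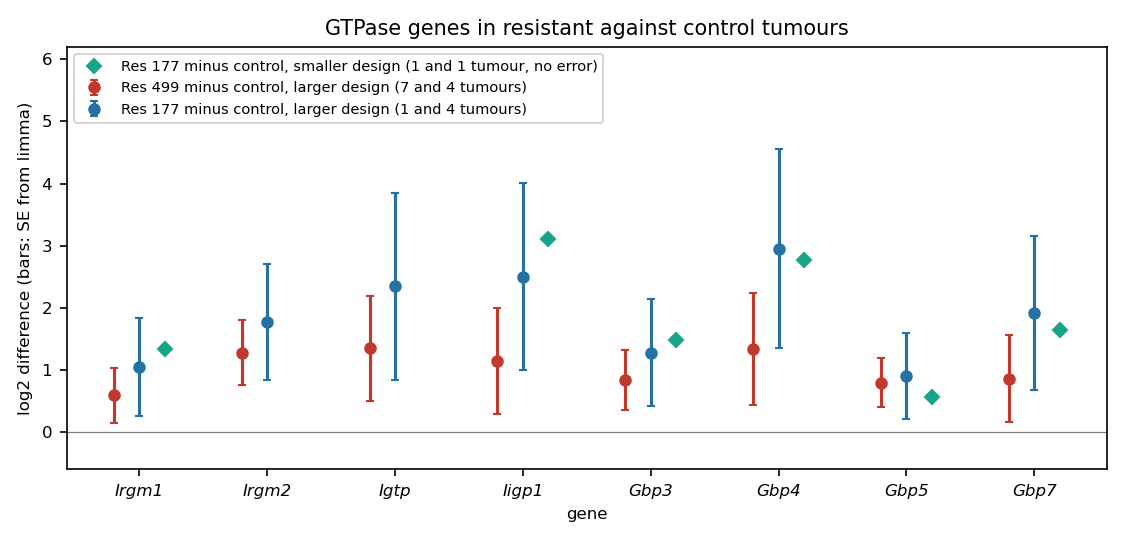
Log2 difference from control of each tested GTPase gene in Res 499 (red) and Res 177 (blue) on the larger design, with SE from limma, and in Res 177 on the smaller design (green diamonds, 1 tumour a group, no error). Points lie above 0 throughout, Iigp1 and Gbp4 lie highest in Res 177 on both designs, and no gene passed the test.

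Between the resistant sublines themselves, the 8 tested members were lower in Res 499 than in the Res 177 tumour, by 0.10 (Gbp5) to 1.62 (Gbp4) on the log2 scale, and none of these differences passed (limma adjusted p = 1.0 for each, 0 with an unadjusted p under 0.05, and 0.234% of genes passing in either direction). Without Res 499 tumour 7 the differences of Gbp3, Irgm1, Irgm2 and Igtp were -0.24, -0.26, -0.29 and -0.60, against -0.45, -0.46, -0.50 and -1.0 with it, and without tumour 6 they were -0.28, -0.24, -0.25 and -0.62. Gbp5 reached -0.28 without tumour 2 or 3 and lay just above 0 without tumour 5, 6 or 7. The Res 177 tumour lay inside the Res 499 range for each of these members. When the sublines were pooled by the response label, resistant against sensitive tumours (8 and 4) had a median change of 1.15 with 0 of 8 members called, where 0.613% of genes passed and 0.289% passed as higher. Irgm2 had the lowest adjusted p at 1.34 (SE 0.50, limma adjusted p = 0.256), and Irgm2 and Gbp5 had an unadjusted p under 0.05, beside 7.11% of genes higher. These comparisons share tumours with those above. Of the listed genes around the GTPases, Pycard (1.08, SE 0.22, limma adjusted p = 0.0494), Rtp4 (1.42, SE 0.25, limma adjusted p = 0.0324) and Ifi27 (0.80, SE 0.14, limma adjusted p = 0.0255) rose in the pooled comparison. Of 20 alternative settings they passed in 7, 12 and 15, and each was lost with the leukocyte covariate, without control tumour 2 or 4 and without Res 499 tumour 3.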

How the data were processed

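The authors deposited log2 values, 1 per probe set and tumour. The submitters' processing notes name RMA and oligo. RMA sets a common distribution on the arrays after background correction and can understate changes of dim genes. For versions, build and probe annotation, the sources used here give no entry, and the log2 scale was read from the values. Of 41345 and 35556 probe sets on the 2 designs, 23521 and 21789 had 1 gene symbol, 1814 and 1621 several and 16010 and 12146 none; symbols came from the platform annotation, and a check through Entrez numbers changed 0. Array medians were 5.70 to 5.80 and 6.69 to 6.70, correlations between arrays of the larger design 0.977 to 0.993, and no batch is labelled. Arrays carry no read depth; the number of tumours limits precision.

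Genes in the lowest 25% by mean were left out. The 3 groups of the larger design were fitted together in R 4.3.3 (limma 3.58.1, lmFit, then eBayes), and a separate fit used 2 response levels, each with Benjamini-Hochberg adjustment over 16635 genes. The fit was tested on simulated data. Named genes were all members, called genes of 16 fixed lists (Usp18 and Irf7 are in 2 of them), Irf1, Ifng, Ptprc, Adgre1 whatever their values, and the 8 of most like pattern; Tgtp2 and Ifi47, also on that list, had no probe set with a single symbol, and 1 further item is not reported here. Other genes of the lists were named as examples after their values were seen. Members and lists were chosen with earlier results of these data known. Alternatives covered the dim filter, probe set choice, leaving out Gbp4 and Gbp6, normalization, eBayes prior, array weights, leukocyte covariate, the tumours fitted and each tumour left out.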

Additional observations from a re-analysis of the deposited data

How the results depend on the processing

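The count of members called was 0 under every setting run: 22 alternatives for Res 499 against control, 20 for Res 177 against control, 20 for Res 499 against Res 177 and 21 for resistant against sensitive, with at most 4, 1, 0 and 7 members at an unadjusted p under 0.05 by limma. Of 620 changes of single members under the alternatives, 605 kept their direction and side of the threshold and 15 reversed. With the leukocyte covariate, the median change of the members was -0.30 in Res 499 and 0.42 in Res 177. With this covariate the median over all genes was 0.01 and no member passed (lowest limma adjusted p 0.723 in Res 499 against control). Under it the Res 499 changes of Gbp3, Gbp4, Gbp7, Igtp, Iigp1 and Irgm1 were -0.20, -0.28, -0.55, -0.35, -0.63 and -0.32, and those in resistant against sensitive tumours -0.17, -0.12, -0.45, -0.26, -0.50 and -0.28. The other 3 were Gbp5 in Res 499 against Res 177, at 0.01, 0.02 and 0.055 without Res 499 tumours 5, 6 and 7; the cause was not tested. With each tumour left out in turn the medians ran from 0.71 to 1.34 in Res 499 and from 1.58 to 2.12 in Res 177, and on the smaller design the median was 1.56 to 1.64 over 5 alternatives, 1 of them, no filter on dim genes, chosen after seeing the data. Counts over all genes moved more: from 59 to between 6 and 356 in Res 499 against control (6 without control tumour 4, 196 without Res 499 tumour 2, 356 with array weights), from 102 to between 9 and 330 in resistant against sensitive, from 35 to between 2 and 101 in Res 177 against control and from 39 to between 2 and 113 in Res 499 against Res 177. No paired analysis was made because the labels give no pairing of tumours.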
